A study of Mus musculus with 12 samples.

Results

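The genes for the proteins of the cytosolic ribosome were examined in bulk RNA sequencing of the microdissected arcuate nucleus (ARC) of female mice. Members were taken by name, as every row whose mouse symbol is Rps or Rpl followed by a number and at most a final a or x. This gave 72 of 16640 genes, 29 of the small subunit and 43 of the large subunit, and 71 when Rps7 is set aside. Controls carried the loxP-flanked Esr1 allele alone (labelled Ctrl), and mutants (labelled NkxCre) also carried an Nkx2-1-driven Cre, which deletes Esr1 in every cell with a history of Nkx2-1 and not only in the ARC. The study kept these mice on a mixed CD-1;129P2 background, all were 27 weeks old, and HFD groups had received high-fat diet for 17 weeks. On chow there were 3 control and 4 mutant libraries and on HFD 2 control and 3 mutant libraries, and the labels do not say how many animals went into a library. Values are the deposited normalized abundance signal, whose column totals lie near the scale of TPM (transcript abundance). Scaling for transcript length is assumed from that, and the scaling between libraries is not stated. Fold changes are on the log2(signal + 1) scale.

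Ribosomal proteins coat the ribosomal RNA of both subunits and are needed in equal numbers per ribosome. Their mRNAs are abundant in all cells, and most start with a terminal oligopyrimidine (TOP) tract through which growth signalling by mTOR controls their translation. Shortage of a single ribosomal protein causes Diamond-Blackfan anaemia in humans, and free Rpl5, Rpl11, Rpl23 and Rps7 can bind MDM2 and so stabilise p53. Each ribosomal protein gene also has processed pseudogenes, copies of its mRNA inserted elsewhere in the genome, and short reads may not tell these from the parent.

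Column totals ran from 922172 to 1254999, and the number of genes listed at 0 ran from 201 to 1768, the latter in mutant chow replicate 3. Sequencing depth is unknown, so neither counting intervals nor detection floors are given. All 8 arcuate neuron markers, among them Agrp and Pomc, were above 0 in every library. Their level was uneven, with a summed signal from 2097 in control HFD replicate 1 to 8133 in mutant chow replicate 3. Esr1, the deleted gene, had a signal of 17.8, 7.29 and 19.8 in control chow, 6.05, 3.15, 1.93 and 1.65 in mutant chow, 15.3 and 22.4 in control HFD, and 10.7, 16.6 and 11.9 in the libraries labelled mutant HFD. These last 3 libraries thus lay above all mutant chow libraries and overlapped the controls, and each direction drawn from them carries that limit. Control chow replicate 2 stood apart in the ribosomal protein genes themselves, and the family medians that rest on it are given with and without it. Most values of single genes, of sums with copies and of other lists are given only with it.

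All 72 members passed the filter on low values, and 71 of 72 lay above the median gene. The median member had a mean signal of 899 over the 12 libraries, against 16.0 for all genes. Rps27, a small subunit zinc finger protein, was highest with a mean of 4832, followed by Rps21 at 3457, Rpl13a at 3140, Rps15 at 2592 and Rpl41, which encodes one of the smallest known proteins, at 2308. The lowest were Rps2 at 4.18, Rps18 at 16.9, Rpl12 at 20.9, Rpl5 at 30.4 and Rpl27 at 65.2. All of these low members had a near-identical copy elsewhere in the table that held far more signal than they did. Among members with known roles outside or at the edge of the ribosome, Rps6, the substrate of S6 kinase, had on chow a control signal of 1950 ± 592 (SD, n = 3) and a mutant signal of 1587 ± 227 (SD, n = 4), and 1510 ± 445 (SD, n = 2) and 1649 ± 141 (SD, n = 3) on HFD. Rps27a, which is made as a fusion with ubiquitin, followed the same order, at 1446 ± 718, 1086 ± 151, 882 ± 343 and 1159 ± 188 (SD, same groups and n). Rps3, which has a role in DNA repair, varied least of these, at 914 ± 112, 951 ± 108, 791 ± 92.4 and 924 ± 86.2 (SD, same groups and n). None of these 3 genes passed the threshold of the test used below in any contrast.

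**Figure D1:**
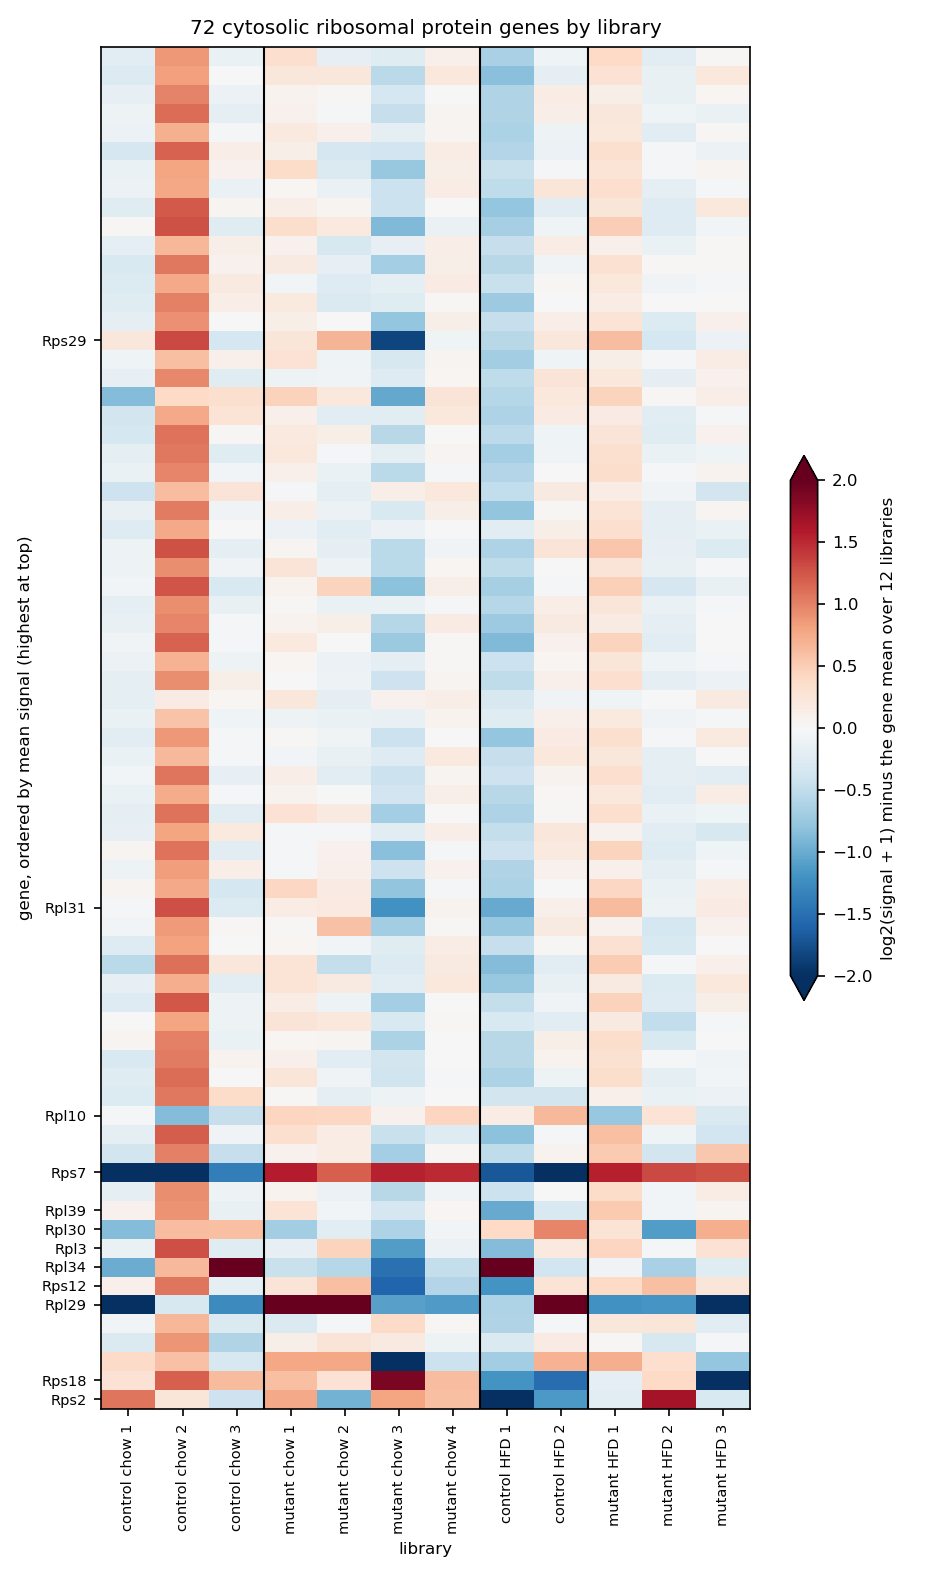
Heat map of log2(signal + 1) of each of the 72 genes minus its own mean over the 12 libraries. Rows are genes ordered by mean signal, of which 12 described in the text are labelled, columns are libraries with black lines between groups, and the colour scale is cut at 2 and -2. The column of control chow replicate 2 is raised in nearly every row, and the row of Rps7 is low in all 5 control libraries and high in all 7 mutant libraries.

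Rps7, a small subunit protein, was the exception to the behaviour of the family (ENSMUSG00000061477, GRCm38 chr12:28630854-28635953, minus strand). Its signal was 27.2, 37.3 and 62.1 in control chow and 490, 378, 479 and 465 in mutant chow. On HFD it was 50.3 and 35.0 in controls and 485, 411 and 398 in mutants. The 5 control libraries lay between 27.2 and 62.1 and the 7 mutant libraries between 378 and 490, with no overlap on either diet. Among the 72 members it ranked 65 to 68 from the top in control libraries and 43 to 56 in mutant libraries. Its log2 fold change, mutant minus control, was 3.47 ± 0.24 on chow (SE, limma, Benjamini-Hochberg adjusted p = 6.19e-05) and 3.33 ± 0.29 on HFD (SE, limma, adjusted p = 0.000793). Diet moved it by -0.07 ± 0.24 in mutants and 0.07 ± 0.29 in controls (log2, SE), and the interaction was -0.14 ± 0.37 (SE, 95% interval -0.95 to 0.67). Rps7 was thus high in all libraries labelled mutant, those on HFD included, in which Esr1 overlapped the controls.

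Rps7 has a near-identical copy among the measured genes, Gm6472 (ENSMUSG00000095597, GRCm38 chrX:152909505-152910155, minus strand), annotated as a transcribed processed pseudogene. Rps7 and Gm6472 differ at 3 of 582 coding bases. The first 150 coding bases, which hold all 3 differences, are shown 5′ to 3′ from the GENCODE M21 transcripts on GRCm38, with the differing bases in capitals. They cover chr12:28634350-28635654 across introns in Rps7 and the unbroken stretch chrX:152909971-152910120 in Gm6472.
Rps7: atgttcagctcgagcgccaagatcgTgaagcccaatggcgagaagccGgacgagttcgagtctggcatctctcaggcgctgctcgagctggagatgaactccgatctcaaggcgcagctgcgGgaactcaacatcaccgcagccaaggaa
Gm6472: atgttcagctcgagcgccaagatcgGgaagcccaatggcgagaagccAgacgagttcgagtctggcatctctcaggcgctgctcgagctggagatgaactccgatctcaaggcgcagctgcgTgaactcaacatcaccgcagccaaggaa
Counted from 1 at the start codon, with the base of Rps7 first, the differences are T26G and G48A, both in exon 2 of the 7 exons of Rps7 (chromosome 12, positions 28635629 and 28635607), and G123T in exon 3 (position 28635440). The rest of the coding sequence is identical, so a read from it that covers none of these positions matches both genes.

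Gm6472 leaned the opposite way to Rps7, without passing the threshold. Its signal was 777, 2102 and 932 in control chow and 575, 492, 402 and 612 in mutant chow. On HFD it was 610 and 957 in controls and 703, 495 and 491 in mutants. The chow groups did not overlap and the HFD groups did. Its log2 fold change was -1.16 ± 0.31 on chow (SE, limma, Benjamini-Hochberg adjusted p = 0.905, from an unadjusted p = 0.00281) and -0.46 ± 0.37 on HFD (SE, limma, adjusted p = 1), so neither passed the threshold. The 45 near-identical copies of all members, described below, had medians of -0.34 on chow and 0.37 on HFD (log2).

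The sum of Rps7 and Gm6472 did not separate the genotypes. It was 804, 2140 and 994 in control chow, 1065, 870, 881 and 1077 in mutant chow, 661 and 992 in control HFD, and 1188, 906 and 889 in mutant HFD. Summed before the fit, the pair had a log2 fold change of -0.30 ± 0.29 on chow (SE, limma, Benjamini-Hochberg adjusted p = 0.982, 95% interval -0.94 to 0.33) and of 0.28 ± 0.35 on HFD (SE, limma, adjusted p = 1, 95% interval -0.47 to 1.04). Rps7 made up on average 3.79% of the sum in control chow and 5.57% in control HFD. A rise of Rps7 with Gm6472 unchanged would thus move the sum far less than Rps7, so these intervals cannot be set against the rise of Rps7 alone. What differed by genotype was the division of the sum, since Rps7 held 1.74% to 7.61% of it in control libraries and 40.8% to 54.4% in mutant libraries. Whether this division reflects transcription of the genes or the assignment of reads between them cannot be told apart from these values.

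**Figure D2:**
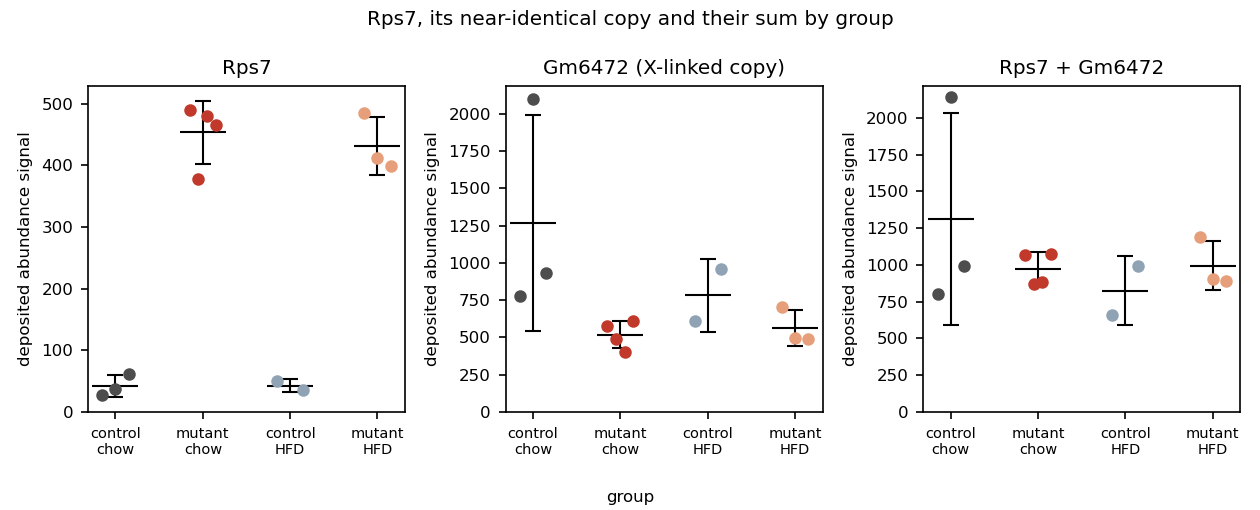
Deposited abundance signal (vertical axes, each from 0) of Rps7, of its copy Gm6472 and of their sum, by group. Points are libraries, and bars are the mean ± SD. Rps7 runs from 27.2 to 62.1 in controls and from 378 to 490 in mutants, whereas the sums overlap.

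The same check was made for the whole family. In GENCODE M21, 980 genes match the coding sequence of 70 members at 90% identity or more over at least 70% of its length. Of these, 45 are in the table, belonging to 34 members, and 36 of the 45 are annotated as pseudogenes and 9 as coding. Coding identity was 100% for 16 of the 45. For 18 members the copies held more signal than the member. The share of a family's signal assigned to its member ranged over a median of 12.4 percentage points between libraries, and over more than 25 points in 11 of the 34 families. In 1 family, that of Rps7, did the shares of the 5 control and 7 mutant libraries not overlap.

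Rpl29, a large subunit protein that also binds heparin, switched between levels without following the groups (GRCm38 chr9:106429454-106431568, plus strand). Its signal was 3.06, 16.2 and 7.86 in control chow, 298, 311, 9.09 and 8.76 in mutant chow, 13.02 and 355 in control HFD, and 8.26, 8.49 and 2.80 in mutant HFD. Mutant chow replicates 1 and 2 and control HFD replicate 2 were high, and the other 9 libraries were at 16.2 or below. Its copies Gm13841 (chr5:115801677-115802159, minus strand) and Gm8210 held the same values as each other in every library, between 130 and 454, with 165 and 130 in mutant chow replicates 1 and 2. Summed with its copies, Rpl29 ranged from 342 to 930. Rpl29 and each of these copies differ at C72A, C300T and T423C (base of Rpl29 first, from the start codon). The 41 coding bases around the first difference are shown for Rpl29 (chr9:106430322-106430362) and Gm13841 (chr5:115802068-115802108), with the differing base in capitals.
Rpl29: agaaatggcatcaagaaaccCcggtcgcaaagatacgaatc
Gm13841: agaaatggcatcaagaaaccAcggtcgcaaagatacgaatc
Rps7 aside, Rpl29 gave the fold changes furthest from 0 in all 5 contrasts, at 2.69 ± 1.36 for genotype under chow and -3.35 ± 1.62 under HFD, -2.99 ± 1.36 for HFD in mutants and 3.05 ± 1.62 in controls, and -6.04 ± 2.12 for the interaction (log2, SE, limma). None passed, with Benjamini-Hochberg adjusted p-values of 0.916 to 1. With the copies included the 5 values lay between -0.15 and 0.16.

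Rpl34, a large subunit protein, showed a division of the same kind in different libraries (GRCm38 chr3:130726831-130730398, minus strand). Its signal was 46.05, 147 and 571 in control chow and 68.3, 62.1, 32.3 and 66.6 in mutant chow. On HFD it was 398 and 71.3 in controls and 88.8, 59.1 and 78.2 in mutants. Control chow replicate 3 and control HFD replicate 1 were high, and in these Rpl34 held 43.3% and 44.1% of the sum with its copy Rpl34-ps1 (chr6:71124610-71124963, plus strand), against 2.998% to 6.46% in the other 10 libraries. The copies differ at T132C and C318G (base of Rpl34 first, from the start codon), of which the first is shown with its surroundings for Rpl34 (chr3:130729064-130729104) and Rpl34-ps1 (chr6:71124721-71124761).
Rpl34: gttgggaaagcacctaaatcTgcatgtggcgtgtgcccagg
Rpl34-ps1: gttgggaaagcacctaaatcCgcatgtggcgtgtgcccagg
The fold change of Rpl34 was -1.50 ± 0.71 on chow and -1.17 ± 0.85 on HFD (log2, SE, limma, Benjamini-Hochberg adjusted p = 0.982 and 1). Without control HFD replicate 1 the HFD value was 0.06. With 1 library left out in turn the chow value ranged from -2.38 to -0.57. Summed with its copy, Rpl34 was at -0.15 ± 0.27 on chow and 0.44 ± 0.32 on HFD (log2, SE, limma).

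**Figure D3:**
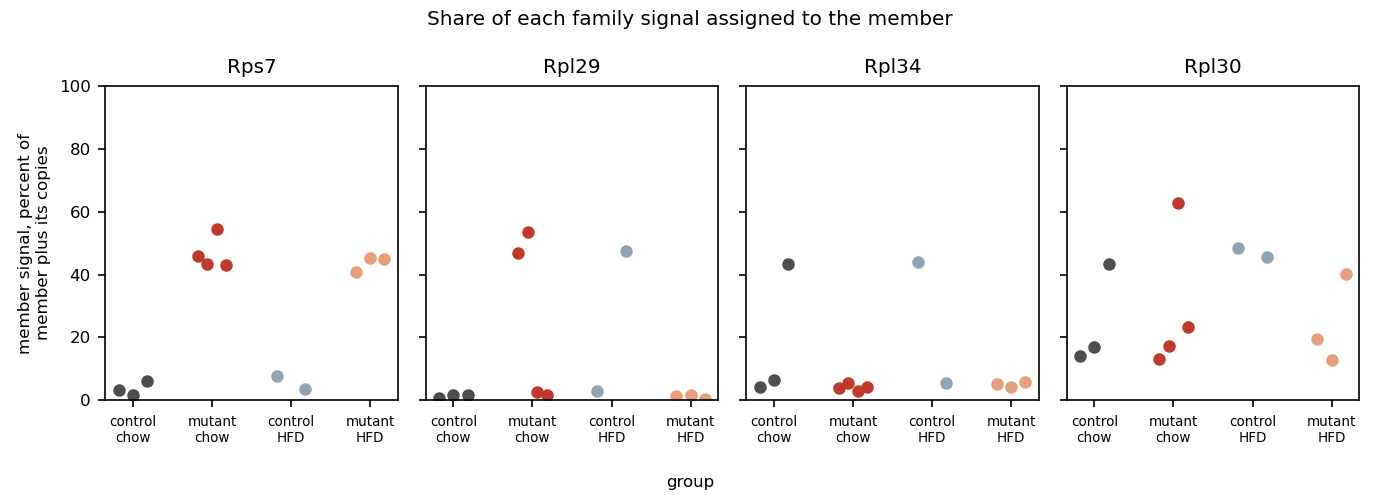
Share of the signal of a family (member plus its near-identical copies, in percent) that was assigned to the member, for Rps7, Rpl29, Rpl34 and Rpl30, by group. Points are libraries. The shares of Rps7 divide by genotype with no overlap, those of Rpl29 and Rpl34 are high in 3 and 2 libraries of mixed groups, and those of Rpl30 spread from 12.8% to 62.9%.

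Rps2, a small subunit protein, had a signal of 0 to 12.1 while its copy Rps2-ps10 had 1375 to 2267.5, and its log2 values of 1.97 ± 0.71 between genotypes on HFD, -1.90 ± 0.71 between diets in controls and 1.97 ± 0.92 for the interaction (SE, limma) rest on control HFD libraries at 0 and 0.873. Rps18, which sits at the head of the small subunit, had 15.2 to 47.9 in the 7 chow libraries and 0.685 to 16.5 in the 5 HFD libraries. Its diet values were -1.77 ± 0.66 in mutants and -2.07 ± 0.79 in controls (log2, SE, limma, Benjamini-Hochberg adjusted p = 0.825 and 0.998). Summed with its copies, Rps18 was at 0.20 in mutants and -0.58 in controls (log2). Rpl10, a large subunit protein that joins late in assembly, was lowest in control chow replicate 2 and mutant HFD replicate 1, at 211 and 227 against 280 to 606 in the other libraries, whereas its copy Rpl10-ps3 was highest in the same pair, at 2775 and 1789.7. Over all members, 10 varied more than 5-fold between the lowest and highest library. After summing with copies 2 did, Rps29 and Rpl30, and the median of this ratio went from 3.08 to 2.89.

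The first comparison asked whether the family differs between genotypes on chow. Of the 72 members 1, Rps7, passed an adjusted p of 0.05 (limma, Benjamini-Hochberg over 15801 genes, of which 0.019% passed), and with copies summed 0 of 72 did (0.0127% of 15756 genes). At an unadjusted p under 0.05 there were 2 members, Rps7 and Rpl10, or 2.78%, against 4.34% of all genes. Nevertheless the members leaned one way, with 64 of 72 below 0, whereas 52.2% of all genes lay above 0. Members that rise and fall together in a library are not separate evidence. The median log2 fold change was -0.31 with Rps7 and -0.31 without it, at 0.01 over all genes. The small subunit median was -0.32 and the large subunit median -0.31 (both without Rps7). The lowest members were Rpl34 at -1.50 (-0.15 when summed with its copy), Rps12 at -0.66 ± 0.49 and Rps29 at -0.65 ± 0.54 (log2, SE, limma). The highest were Rps7, Rpl29 and then Rpl10 at 0.79 ± 0.25 (log2, SE, limma). Rps12 and Rps29 rest in part on single libraries, since they were at -0.24 and -0.13 without mutant chow replicate 3 and at -0.29 and -0.19 without control chow replicate 2. With control chow replicate 2 left out the median without Rps7 was 0.02, with 41 of 71 members above 0.

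That library stood out across the family. Control chow replicate 2 was the highest of the 12 libraries for 62 of 72 members, and for 70 of 72 once copies were added. The summed member signal was 134479 there, against 62493 and 69905 in the other control chow libraries, 53479 to 79276 in mutant chow, 47717 and 73177 in control HFD, and 64158 to 86741 in mutant HFD. The members made up 10.7% of the column total in that library and 5.17% to 8.39% in the other 11. Relative to the mean of the other 2 control chow libraries, the median member was 2.02-fold as high in control chow replicate 2, the median of 78 nuclear oxidative phosphorylation genes was 1.86-fold as high, and the median of all genes tested was 0.944-fold. At the low end, control HFD replicate 1 was lowest for 41 members and mutant chow replicate 3 for 22. In bulk tissue fewer cells of a type and less RNA per cell cannot be told apart.

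Some other measurements moved with control chow replicate 2 and control HFD replicate 1, in the same or the opposite direction. Of the markers of pituitary and pars tuberalis, Cga, the common subunit of the glycoprotein hormones, had a signal of 4802 in control chow replicate 2, the highest, and 82.0 in control HFD replicate 1, the lowest, with 407 to 1586 in the other 10. Tshb, the other subunit of thyrotropin, had 655 and 22.5 in the same libraries and 91.5 to 568 in the others. Prl, the prolactin gene, was at 0 in 7 libraries and reached 52.5 in mutant chow replicate 4. Arcuate neuron markers had a median deviation from their own means of 0.49 in control chow replicate 2 and -1.08 in control HFD replicate 1 (log2). Neuron markers went the other way, at -0.31 and 0.53 in these libraries, as did astrocyte markers, at -0.45 and 0.68 (log2). But neuron markers were also at -0.28 in control chow replicate 3 and -0.29 in control HFD replicate 2, where the 71 members were at -0.07 and 0.05. The marker lists did not keep these directions in mutant chow replicate 3, where the 71 members were at -0.41 (log2). Arcuate neuron markers were at 0.51 there, neuron markers at -0.23 and astrocyte markers at -0.19 (log2). Of the mitochondrial lists, the 79 mitochondrial ribosomal protein genes had a median deviation of 0.54 from their own means in control chow replicate 2 and of -0.23 in control HFD replicate 1, and the 78 nuclear oxidative phosphorylation genes of 0.73 and -0.26, beside 0.92 and -0.59 for the 71 members without Rps7 and -0.03 and 0.01 for all genes tested (log2). The 13 mitochondrially encoded genes did not share this order, at 0.28 and 0.11 in the same libraries, and were lowest in control HFD replicate 2 at -0.43 (log2). In mutant chow replicate 3 the mitochondrial ribosomal, nuclear oxidative phosphorylation and mitochondrially encoded genes were at -0.29, -0.42 and -0.18 (log2). Between groups, Cga was at 1.74 ± 0.99 for genotype on HFD and -2.19 ± 0.99 for diet in controls, and Tshb at -1.93 ± 0.94 for diet in controls (log2, SE, limma, none called), each with the sign of the family. Of 7 microglia markers 4 had an unadjusted p under 0.05 (limma) for genotype on chow, all higher in mutants, against 4.34% of all genes. For diet in mutants 4 did, all lower on HFD, against 5.37% of all genes. The medians were 0.47 and -0.45 (log2), against the sign of the family. Both contrasts use the mutant chow libraries, where the median deviation of these markers was 0.31 to 0.59, so the counts are not independent. The 8 markers of neighbouring nuclei had a median of 1.54 for genotype on HFD, with 8 above 0. The part that tissue content, RNA quality or scaling of the column has in the family's level was not tested.

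**Figure D4:**
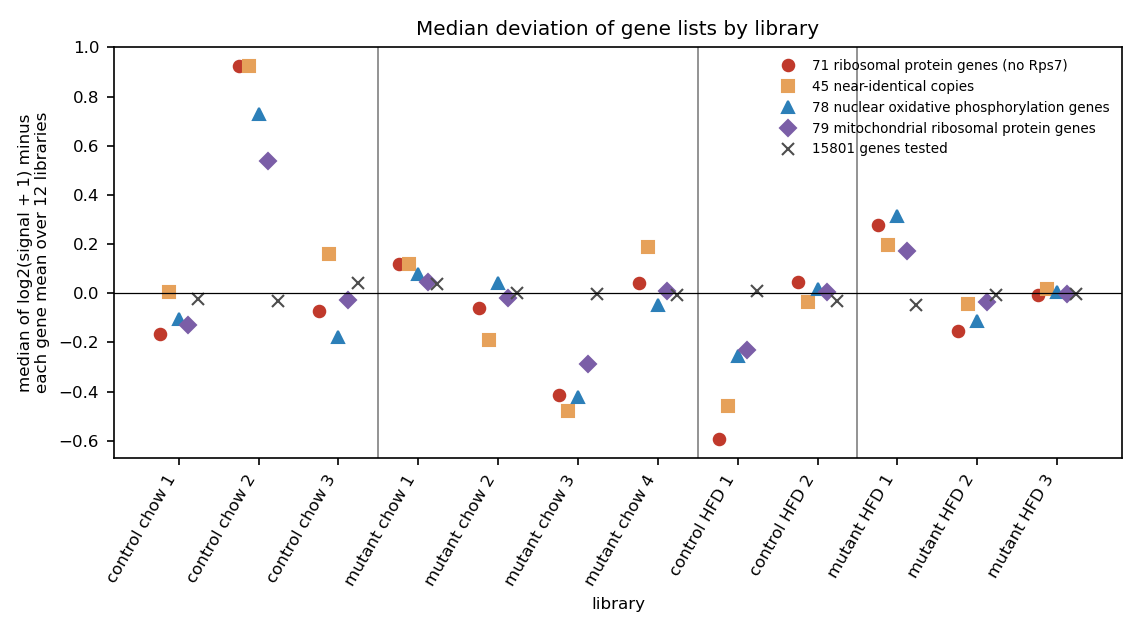
Median over each gene list of log2(signal + 1) minus the gene's mean over the 12 libraries, by library, with vertical lines between groups. The 71 ribosomal protein genes without Rps7 reach 0.92 in control chow replicate 2 and -0.59 in control HFD replicate 1, and the 3 other lists move the same way in these libraries while the median of all 15801 genes tested stays near 0.

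The second comparison asked whether HFD changes the family in mutants. Of 72 members 0 passed the threshold (limma, Benjamini-Hochberg, 0.019% of all genes), also with copies summed (0.019%), and 3 had an unadjusted p under 0.05 (4.17%, against 5.37% of all genes), all of them lower on HFD. These were Rpl29, Rps18 and Rpl10, at -0.60 ± 0.25 (log2, SE, limma), and all 3 were above 0 once summed with their copies. The median member was at 0.10 with and without Rps7, with 60 of 72 above 0 (46.9% of all genes), and the median of all genes at -0.02. This small difference had no stable sign, since the median without Rps7 was -0.01 without mutant chow replicate 3 and -0.000251 without mutant HFD replicate 1. Rpl31, Rpl3 and Rps12, the last near the decoding head of the small subunit, were highest, at 0.43 ± 0.43, 0.47 ± 0.42 and 0.74 ± 0.49 (log2, SE, limma), and at 0.09, 0.18 and 0.32 without mutant chow replicate 3. The fold changes of this comparison do not use control chow replicate 2, but their SEs and p-values do, through the spread shared by all groups.

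The third comparison, between genotypes on HFD, uses the libraries labelled mutant HFD. It called Rps7 alone of the 72 members (limma, Benjamini-Hochberg), which was also the only gene called of all 15801 (0.00633%), and with copies summed 0 members and 0% of genes were called. Rps2, Rps7 and Rpl39, a small protein of the peptide exit tunnel, had an unadjusted p under 0.05 (3 of 72 or 4.17%, against 2.21% of all genes). Rpl39 had a signal of 120 and 196 in control HFD and 349, 233 and 252 in mutant HFD, which did not overlap, and a log2 fold change of 0.83 ± 0.32 (SE, limma, adjusted p = 1). It has no near-identical copy in the table. Of the members 66 of 72 were above 0 (48.4% of all genes), with a median of 0.32 with Rps7, 0.31 without it and -0.01 over all genes. Rpl29, Rpl34 and Rpl30, at -0.72 ± 0.52, were lowest, and all 3 were above 0 once summed with their copies. Rps12 was at 0.88 ± 0.59 (log2, SE, limma), and at 0.15 without control HFD replicate 1. Without control HFD replicate 1 the median without Rps7 was 0.02, so with 2 control libraries 1 of them decided its size.

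The fourth comparison, of diet in controls, called 0 of 72 members and 0 of 15801 genes (0%; limma, Benjamini-Hochberg), and also 0 with copies summed (0%). At an unadjusted p under 0.05 there were 7 members, or 9.72%, against 3.54% (560) of all genes. Lower on HFD were Rps18, Rps2, Rpl39 at -0.93 ± 0.32, Rpl36 at -0.85 ± 0.38, Rpl22, whose protein also binds viral and cellular RNA, at -0.75 ± 0.29, and Rpl9 at -0.60 ± 0.27, and higher was Rpl10 at 0.85 ± 0.30 (log2, SE, limma). Rpl30, at 0.57 ± 0.52, was among the 3 highest with Rpl10 and Rpl29. This contrast had the largest lean of the 4 group comparisons, with 67 of 72 members below 0, whereas 49.0% of all genes lay above 0. Its median was -0.51 with and without Rps7, at -0.01 over all genes. The contrast sets the highest library of the family, control chow replicate 2, against the lowest, control HFD replicate 1. Without the former the median was -0.17, with 61 of 71 members below 0. The 71 members had a median deviation from their own means of -0.16 and -0.07 in the other control chow libraries (log2). In control HFD it was -0.59 in replicate 1 and 0.05 in replicate 2. The lean that remained thus rested on control HFD replicate 1, and no fit left out both extreme libraries.

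The interaction asked whether the genotype difference depends on diet. It called 0 of 72 members and 0 of 15801 genes (0%; limma, Benjamini-Hochberg), and 0 with copies summed (0%), while 3 members had an unadjusted p under 0.05 (4.17%, against 3.44%, or 543, of all genes). These were Rpl39 at 1.13 ± 0.41, Rpl10 at -1.45 ± 0.40 and Rpl29 (log2, SE, limma). The median was 0.61 with Rps7, 0.61 without it and -0.03 over all genes, with 67 of 72 members above 0 (47.3% of all genes). Rpl31 at 1.21 ± 0.67 and Rps12 at 1.54 ± 0.76 followed Rps2 at the high end. Without control chow replicate 2 the median without Rps7 was 0.26. That fit still held control HFD replicate 1, the lowest library of the family, and no fit left out both. The comparisons share control libraries, so their medians are not independent.

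**Figure D5:**
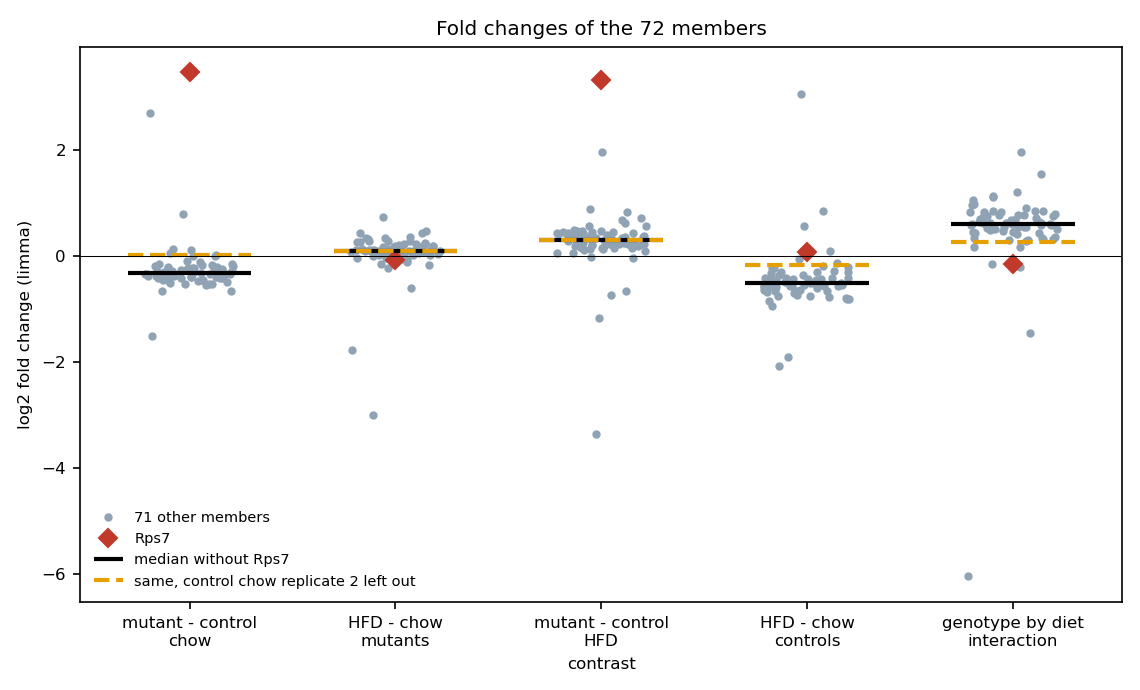
Log2 fold change (limma) of each of the 72 members in the 5 contrasts. Grey points are members, red diamonds are Rps7, black lines are medians without Rps7, and dashed orange lines are the same medians with control chow replicate 2 left out. Rps7 is at 3.47 and 3.33 in the genotype contrasts and near 0 in the other 3, and the medians of -0.31, -0.51 and 0.61 that involve control chow become 0.02, -0.17 and 0.26 without that library. The values of -0.17 and 0.26 still rest on fits that hold control HFD replicate 1, the lowest library of the family.

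Members of medical interest included genes whose loss causes Diamond-Blackfan anaemia. Rps19, the gene most often mutated in this disease, had a signal of 628, 1532 and 621 in control chow, 878, 814, 450 and 718 in mutant chow, 466 and 727 in control HFD, and 911, 652 and 680 in mutant HFD. It was highest in control chow replicate 2 and overlapped between the groups, with log2 values of -0.28 ± 0.33 between genotypes on chow and 0.34 ± 0.40 on HFD, and 0.09 ± 0.33 between diets in mutants and -0.53 ± 0.40 in controls (SE, limma, none called). Rps29, one of the smallest of these proteins, had 362 in mutant chow replicate 3 against 1007 to 3223 in the other chow libraries, and no near-identical copy in the table. Its levels overlapped between genotypes on both diets. Of the 4 members that bind MDM2, Rpl5 was at 0.12 ± 0.30, Rpl11 at -0.29 ± 0.32 and Rpl23 at -0.44 ± 0.29 on chow (log2, SE, limma), none past the threshold. Rpl5 held 2.19% to 5.96% of its family's signal, and summed with its copy it was at -0.12 ± 0.23 (log2, SE, limma). Of 16 tested p53 targets 0 were called in any contrast (limma, Benjamini-Hochberg), where at most 0.019% of all genes were called. With so few calls, a count of 0 among 16 genes says nothing about p53 activity. Their medians ran from -0.11 to 0.11 over the 5 contrasts. Mdm2 had a signal of 32.8 to 38.2 in control chow and 34.3 to 54.4 in mutant chow, which overlapped.

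Genes that work with the ribosome were described from lists by the same fit. Of these lists 0 genes passed the threshold in any contrast (limma, Benjamini-Hochberg), where at most 0.019% of all genes passed. Among ribosomal protein genes that the name rule leaves out, Rpsa, the laminin receptor of the small subunit, was at -0.22 ± 0.24 between genotypes on chow and 0.17 ± 0.29 on HFD, and Rack1, a scaffold on the head of the small subunit, at -0.31 ± 0.28 and 0.32 ± 0.33 (log2, SE, limma). Rplp0, the base of the ribosomal stalk, lay nearer to 0 at -0.04 ± 0.17 and -0.02 ± 0.21 (log2, SE, limma). The 6 tested paralogs, such as Rpl22l1 and Rps27l, had medians, in the order of the 5 comparisons above, of -0.29 (chow genotypes), 0.22 (mutant diets), 0.45 (HFD genotypes), -0.58 (control diets) and 0.85 (interaction). The 20 translation factors and other TOP mRNAs leaned less, at -0.13, 0.05, 0.03, -0.11 and 0.17. Eef1a1, the elongation factor that brings aminoacyl-tRNA to the ribosome, had 5878 in control chow replicate 2 and 3561 to 5146 in the other 11 libraries. Tpt1, the translationally controlled tumour protein, had 3355 there and 985 to 2000 elsewhere.

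Genes that build ribosomes were described in the same way. The 33 ribosome biogenesis factors had medians of -0.10, -0.00217, 0.02, -0.08 and -0.01 in that order, and 3 had an unadjusted p under 0.05 for genotype on chow, 1 higher and 2 lower in mutants, against 4.34% of all genes. Among them Fbl, the methyltransferase of ribosomal RNA, was at 0.58 ± 0.27 for diet in mutants and 0.93 ± 0.42 for the interaction (log2, SE, limma, Benjamini-Hochberg adjusted p = 0.916 and 0.999). The 14 genes of RNA polymerase I had 0.06, -0.04, -0.06, 0.07 and -0.16. The 19 genes of mTOR, S6 kinase and LARP1 signalling, which control TOP mRNAs, had -0.01, 0.02, -0.03, 0.05 and 0.03. Eif4ebp1, the repressor of cap-dependent translation, was at 0.87 ± 0.39 for diet in controls and -1.51 ± 0.51 for the interaction (log2, SE, limma, adjusted p = 0.998 and 0.999). Of the snoRNA host genes 1 of 19 listed was in the table, Snhg11, at 0.30 in the first comparison and -0.42 in the second (log2, neither called).

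Beyond the cytosol, the 79 mitochondrial ribosomal protein genes had medians of -0.22, 0.10, 0.15, -0.26 and 0.41 in that order, and for diet in controls 8 of them had an unadjusted p under 0.05, all lower on HFD, against 3.54% of all genes. The 78 nuclear oxidative phosphorylation genes had -0.25, 0.20, 0.22, -0.26 and 0.47, and the 13 mitochondrially encoded genes -0.17, 0.19, 0.28, -0.34 and 0.49. The 18 ribosomal protein pseudogenes named as such had -0.40, 0.11, 0.30, -0.52 and 0.67. These lists thus carried the sign of the members in each contrast. For diet in mutants the nuclear oxidative phosphorylation and the mitochondrially encoded genes lay further from 0 than the members, at 0.20 and 0.19 against 0.10. In the other contrasts the members lay further from 0 than the mitochondrial lists.

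The promoters of the members were read for the TOP tract, taken as a C at the annotated start followed by 4 pyrimidines (RefSeq, GRCm38.p6, on the strand of each gene). Promoters were found for 53 of the 72 members, 63 in all. At the start base itself 12 of 63 (19.05%) held the tract, against 2.51% of all 32851 promoters, and with a start allowed 20 bases to either side 48 of 63 (76.2%) did, against 49.4%. The tract is shown for 2 members that have it, Rps6 and Rpl38, a large subunit protein needed for translation of some Hox mRNAs. Rps7 is shown too and, like most of the member promoters, has none at its annotated start base. Its window does hold a C followed by 4 pyrimidines on either side of that base. The 15 bases from the start onward are in capitals.
Rps6: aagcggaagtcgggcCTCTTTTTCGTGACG
Rpl38: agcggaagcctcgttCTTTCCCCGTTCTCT
Rps7: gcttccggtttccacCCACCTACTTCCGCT
These windows lie at chr4:86857353-86857382 (minus strand), chr11:114668565-114668594 (plus strand) and chr12:28635939-28635968 (minus strand). A match describes the letters at an annotated start and was not tested against expression.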

How the data were processed

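Per the labels, bulk RNA sequencing was carried out on 12 ARC libraries in 4 groups. The authors aligned reads with Kallisto in gene mode (mm10) and tested with Sleuth; versions, annotation and strand are not given in the sources used here. The deposited values are an abundance signal for 16640 genes, near the scale of a TPM, from which reads could not be recovered, so depth is unknown. All columns were matched to labels by name, and nothing says the libraries came from separate animals, so p-values measure the spread between these libraries.

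Symbols came from GENCODE M21 (16633 matched, 7 did not). Genes with a signal of at least 1 in at least 2 libraries were kept (15801). On log2(signal + 1), a limma 3.58.1 model (R 4.3.3) with trended variance was used, 1 mean per group, two-sided, with Benjamini-Hochberg adjustment over all genes at 0.05, and was checked on simulated data. Copies were found with BLAST+ 2.17.0. No quantity was tested for the family as a whole.

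Named genes were Rps7 and its copy, called members, the 3 highest and 3 lowest fold changes per contrast, the 5 highest and 5 lowest levels, members of fixed role groups, members with a library standing apart, and the smallest p-values of each list; copies other than Gm6472 and the genes Mdm2, Eef1a1 and Tpt1 were chosen after their values were seen. Members and lists were chosen with earlier results of these data known. Some genes of the lists, and list values that turn on them, are not reported here.

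Lists of markers for cell types were checked too. Their median log2 fold changes for genotype on chow were 0.08 for neurons, 0.19 for arcuate neurons, 0.08 for astrocytes, 0.65 for oligodendrocytes, 0.09 for their precursors, 0.47 for microglia, -0.06 for endothelial cells, -0.19 for mural cells, -0.02 for ependymal cells and tanycytes, 0.91 for neighbouring nuclei and 0.89 for blood. In these lists 0 genes were called (limma, Benjamini-Hochberg) in any contrast, where at most 0.019% of all genes were called.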

Additional observations from a re-analysis of the deposited data

Results flagged for a closer look

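In mutant chow, the group of 4 libraries, each member's highest or lowest library was set against the other 3, and 6 of 72 members had 1 library whose gap to the nearest, as a share of the range, exceeded Dixon's 95% critical value; chance alone flags about 1 in 20. All 6 stood apart in mutant chow replicate 3, the library with the most genes at 0. Low there were Rps21 at 2282 (others 3862 to 3901), Rps9 at 662 (1028 to 1093), Rpl31 at 252 (615 to 671), Rpl23 at 295 (460 to 474) and Rpl10 at 410 (515 to 520), and high was Rps18 at 47.9 (15.2 to 19.4). Of 34 sums with copies 2 were flagged in the same library, Rps23 at 854 (1450 to 1553) and Rpl28 at 474 (574 to 591). The part that this library's many zeros have in these values was not tested. No member passed the test of a genotype difference that depends on diet, and no other data are held outside the comparisons.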

How the results depend on the processing

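Alternatives were quantile normalisation, columns rescaled to 1000000, limma without the trend, a pseudocount of 0.1, array weights, no filter on low values, a filter on means under 5, fits to the compared groups alone, and each library left out in turn. Under all of these Rps7 passed in both genotype contrasts (20 of 20 settings each, log2 fold change 3.20 to 3.78 on chow and 3.07 to 3.58 on HFD). Summing members with their copies, chosen after seeing the data, gave 0 called members on chow and 0 on HFD. It also reversed Rps7 (genotype on chow -0.30, diet in mutants 0.0255, diet in controls -0.56, interaction 0.59), Rpl29 (-0.15 genotype on chow, 0.16 diet in mutants, 0.00341 genotype on HFD, 0.16 interaction), Rpl10 (-0.27, 0.00809, diet in controls -0.51, interaction 0.52), Rpl30 (0.39 genotype on HFD, -0.54 diet in controls, 1.06 interaction), Rpl34 (0.44 genotype on HFD) and Rps18 (0.20 diet in mutants). Of the members described by role, Rpl5 turned for genotype on chow too.

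The number of called members was 1 to 1 for both genotype contrasts and 0 to 0 for the others when libraries were left out. The median without Rps7 then ranged from -0.52 to 0.02 (genotype on chow), -0.01 to 0.21 (diet in mutants), 0.02 to 0.61 (genotype on HFD), -0.82 to -0.17 (diet in controls) and 0.26 to 0.92 (interaction). Signs that reversed with 1 library left out were those of Rps7 for diet in controls (-0.20 to 0.39) and the interaction (-0.46 to 0.13), Rpl30 for the interaction (-0.58 to 0.33) and Rpl34 on HFD (-2.41 to 0.0595, without control HFD replicate 1), none of them called. Array weights gave medians without Rps7 of -0.09, 0.02 (40 of 71 above 0), 0.28, -0.34 and 0.33 in the same order, and quantile normalisation -0.15, 0.06, 0.18, -0.26 and 0.35, all with the sign of the reported medians and nearer to 0. Rescaling shifted the median of all genes to 0.12 for diet in controls and -0.18 for the interaction, and relative to it the members lay at -0.48 and 0.62. Where a control HFD library was left out the lone sample was assumed to vary like the other groups. No paired analysis was possible because replicate numbers follow the order of deposition.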
